A study of Oryza sativa Indica Group with 36 samples.

Results

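IPK2 (BGIOSGA008331) and ITPK2 (BGIOSGA012174) are the genes that the study annotated as an inositol polyphosphate multikinase and an inositol-tetrakisphosphate 1-kinase of rice. They were taken by identifier from the deposited gene tables, as 2 of 43254 genes, and followed through 12 groups of seedlings in the cold and during recovery. Both were measured in every library, at 80 to 2311 counts per library for IPK2 and at 88 to 1320 for ITPK2, and both passed the filter on low counts in every comparison.

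Inositol phosphates are rings of inositol that carry phosphate groups in different numbers and positions. Cells make them in part from a membrane lipid that phospholipase C cuts during signalling. An IPK2 enzyme adds phosphates to inositol trisphosphate and so removes one messenger while making the next members of the series. An ITPK enzyme phosphorylates inositol tetrakisphosphate, and both activities lie on routes to inositol hexakisphosphate, the phytate that plants store as phosphate and also use in hormone perception. An mRNA level does not measure enzyme activity, and no inositol phosphate was measured here.

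The study sequenced RNA from stems and leaves of hydroponic seedlings cooled at the four-leaf stage. DC907 is the cold-insensitive line, labelled NIL for near-isogenic line, and 9311 the cold-sensitive line, labelled WT. The DC907 groups were BT1 and BT3 after 1 and 3 days at 8 ℃, BT1H1 and BT3H1 after 1 further day of recovery at room temperature, BT1H3 and BT3H3 after 3 days of recovery, and the uncooled control BCK. The 9311 groups were AT1, AT3, AT1H1 and AT3H1, named in the same way, and the control ACK. Each group had 3 libraries, which gave 21 of DC907 and 15 of 9311. Each line is a single genotype, so any difference between DC907 and 9311 belongs to that pair of lines only.

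Library totals on genes ran over 10176660 to 18789555 counts (median 16621963). The lowest total was that of BT1 replicate 3, and the next was 14412904. On 78 genes that differed between 9 DC907 and 9 9311 libraries of the control, T1 and T1H1 stages, the 6 libraries labelled AT3 and AT3H1 lay on the DC907 side for 82.1% to 96.2% of the genes. The 12 libraries of BT1H3, BT3, BT3H1 and BT3H3 did so for 92.3% to 98.7%. When each stage of ACK, AT1 and AT1H1 was tested on genes chosen without it, its libraries lay on that side for 5.81% to 29.5%. Tested in the same way, the libraries of BCK, BT1 and BT1H1 did so for 68.9% to 92.6%. There were no other 9311 libraries with 3 days of cold to test. On these genes the AT3 and AT3H1 libraries therefore go against their label. Their values are given as those of libraries labelled 9311, with BCK as a second control.

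In FPKM, the count scaled to the length of the gene and the total of the library, IPK2 was highest on the first day of cold. The AT1 libraries had 102.7, 116.2 and 164.6 FPKM, against 6.02, 17.2 and 9.17 FPKM in ACK. The BT1 libraries had 53.9, 85.4 and 57.3 FPKM, against 13.0, 11.2 and 6.66 FPKM in BCK. Every AT1 library lay above every BT1 library, and every library of both groups lay above all of its controls, as was the case for 17.9% of all genes in AT1 and 20.7% in BT1. The share of all genes with a higher FPKM than IPK2 was 4.07%, 3.60% and 2.59% in the AT1 libraries, against 35.0%, 21.5% and 29.3% in ACK. AT1 replicate 3, the highest library, is the one whose alignment rate the study described as low.

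On the third day, BT3 had 32.3, 29.4 and 33.1 FPKM of IPK2, and the libraries labelled AT3 had 50.6, 64.0 and 33.7 FPKM. One day of recovery gave 19.0, 23.7 and 21.3 FPKM in BT1H1, 15.9, 17.0 and 18.5 FPKM in BT3H1, and 33.7, 23.3 and 17.2 FPKM in AT1H1. The libraries labelled AT3H1, at 5.52, 9.95 and 11.3 FPKM, formed the only recovery group with a mean below both controls. After 3 days of recovery IPK2 stood at 27.5, 31.8 and 27.4 FPKM in BT1H3 and at 17.0, 22.1 and 23.0 FPKM in BT3H3.

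By mean FPKM (± SD, n = 3), the order of IPK2 was AT1 at 128 ± 32.5, BT1 at 65.6 ± 17.3, AT3 at 49.4 ± 15.2, BT3 at 31.6 ± 1.97, BT1H3 at 28.9 ± 2.53 and AT1H1 at 24.7 ± 8.33, and then BT1H1 at 21.3 ± 2.37, BT3H3 at 20.7 ± 3.22, BT3H1 at 17.1 ± 1.34, ACK at 10.8 ± 5.77, BCK at 10.3 ± 3.26 and AT3H1 at 8.92 ± 3.02. Between neighbours in this order, the libraries did not overlap only for AT1 over BT1 and AT3 over BT3, as was the case for 5.02% and 13.1% of all genes, and after TMM scaling those of AT3 and BT3 overlapped. The cold groups held the 4 highest places, but AT1H1 replicate 1 at 33.7 FPKM lay above every BT3 library.

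ITPK2 followed the same outline with a narrower range. The AT1 libraries had 75.6, 51.2 and 66.9 FPKM, against 15.02, 17.6 and 15.8 FPKM in ACK. The BT1 libraries had 51.2, 52.2 and 53.4 FPKM, against 7.50, 15.8 and 12.1 FPKM in BCK. On the first day, the cold libraries of each line lay above all of its control libraries, the pattern of 17.9% of all genes in AT1 and 20.7% in BT1, and those of AT1 and BT1 overlapped. On the third day, BT3 had 38.7, 31.3 and 38.9 FPKM, and the libraries labelled AT3 had 27.6, 24.6 and 43.0 FPKM.

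In recovery, ITPK2 had 26.2, 13.4 and 9.01 FPKM in BT1H1, 15.5, 19.5 and 14.3 FPKM in BT3H1, 19.8, 17.0 and 20.2 FPKM in AT1H1, and 16.7, 24.4 and 12.3 FPKM in the libraries labelled AT3H1. After 3 days it stood at 19.2, 21.6 and 17.4 FPKM in BT1H3 and at 14.3, 11.04 and 4.46 FPKM in BT3H3. BT3H3 replicate 3 was the lowest of all 36 libraries, and BT1H1 had the widest spread among the recovery groups.

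By mean FPKM (± SD, n = 3), the order of ITPK2 was AT1 at 64.6 ± 12.4, BT1 at 52.3 ± 1.14, BT3 at 36.3 ± 4.32, AT3 at 31.7 ± 9.86, BT1H3 at 19.4 ± 2.10 and AT1H1 at 19.0 ± 1.74, and then AT3H1 at 17.8 ± 6.15, BT3H1 at 16.4 ± 2.76, BT1H1 at 16.2 ± 8.95, ACK at 16.1 ± 1.30, BCK at 11.8 ± 4.15 and BT3H3 at 9.92 ± 4.999. Only BT1 over BT3 and AT3 over BT1H3 were neighbours whose libraries did not overlap. For BT1 over BT3 this was the case for 17.8% of all genes, and for AT3 over BT1H3 the share was not determined. After TMM scaling AT3H1 held place 5, and its libraries overlapped those of AT3. The cold groups had the 4 highest means, but BT1H1 replicate 1 at 26.2 FPKM lay above AT3 replicate 2 at 24.6 FPKM.

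**Figure D1:**
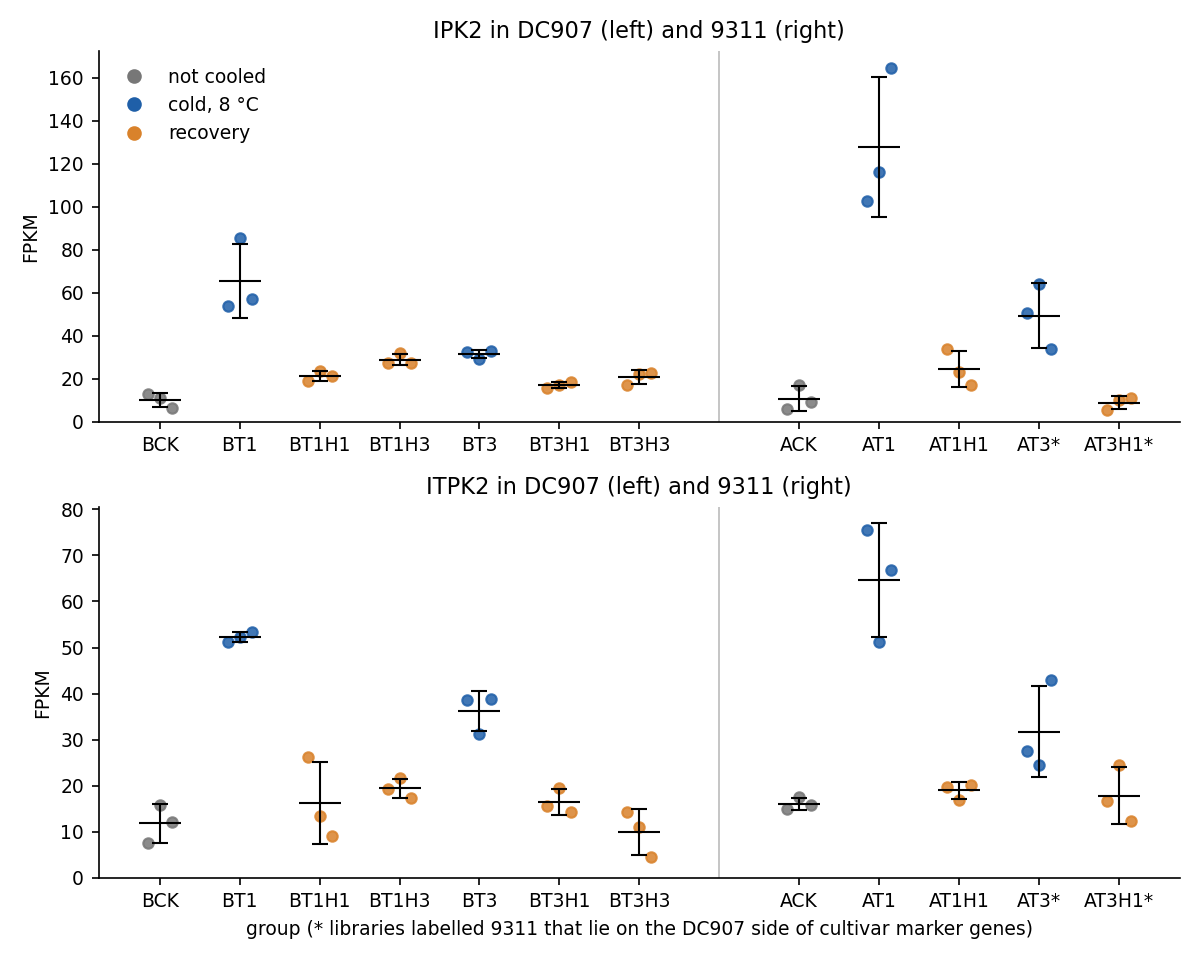
FPKM of IPK2 (top) and ITPK2 (bottom) in each of 36 libraries (points) by group, with the mean and SD of 3 libraries (black). DC907 groups stand on the left and groups labelled 9311 on the right, each from the uncooled control through cold and recovery. The highest IPK2 libraries are those of AT1, at 102.7 to 164.6 FPKM, and the asterisks mark AT3 and AT3H1, whose libraries lie on the DC907 side of the cultivar marker genes.

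The first question was how much each gene changed in the cold against the uncooled control of its line. Both genes rose in AT1 and in BT1. In AT1, the mean FPKM was 11.8 times that of ACK for IPK2 and 4.01 times for ITPK2. In BT1, it was 6.38 times that of BCK for IPK2 and 4.43 times for ITPK2. In bulk tissue, a larger share of cells that express a gene and more RNA per cell cannot be told apart.

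From the counts, edgeR's quasi-likelihood test gave IPK2 a log2 fold change of 4.05 ± 0.47 (SE; Benjamini-Hochberg adjusted p = 0.0052) in AT1 against ACK. ITPK2 had 2.48 ± 0.29 (adjusted p = 0.0053) in the same comparison. Without AT1 replicate 3 the values were 3.73 for IPK2 and 2.39 for ITPK2 (edgeR adjusted p = 0.040 each). In this comparison 16.8% of the genes tested were called higher, 3.07% had a larger log2 fold change than IPK2, and 8.82% had a larger one than ITPK2. With the library totals alone, without the TMM factors that scale each library to the bulk of its genes, the median of all genes was -0.59 in place of -0.13, and IPK2 was at 3.56.

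In BT1 against BCK, IPK2 had a log2 fold change of 2.81 ± 0.44 (adjusted p = 0.012) and ITPK2 one of 2.34 ± 0.30 (adjusted p = 0.0092). Of all genes tested 13.0% were called higher there, and 6.54% and 9.18% had larger log2 fold changes than IPK2 and ITPK2. Without BT1 replicate 2 neither call held, at 2.40 (adjusted p = 0.067) for IPK2 and 2.18 (adjusted p = 0.063) for ITPK2. That fit called 46 of 24155 genes, against 5292 of 23183 with all 6 libraries.

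On the third day both genes were still raised in BT3 against BCK, by 1.61 ± 0.37 for IPK2 (adjusted p = 0.020) and by 1.68 ± 0.30 for ITPK2 (adjusted p = 0.011) on the log2 scale. There 17.2% of all genes were called higher. In FPKM the 2 genes had nearly the same ratio to BCK, at 3.07 each. The call of IPK2 was lost without BT3 replicate 1 (adjusted p = 0.070) or replicate 3 (adjusted p = 0.085), and that of ITPK2 without BT3 replicate 3 (adjusted p = 0.061). The fit without BT3 replicate 1 called 4982 genes and the one without replicate 3 called 928, against 7898 with all 6 libraries.

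The libraries labelled AT3 gave IPK2 2.26 ± 0.50 against ACK (adjusted p = 0.028), where 10.2% of all genes were called higher. Against BCK the value was 2.18 ± 0.46 (adjusted p = 0.025). ITPK2 had 1.05 ± 0.37 against ACK (adjusted p = 0.085) and 1.44 ± 0.40 against BCK (adjusted p = 0.048). With ACK as the control ITPK2 was also called by DESeq2 (adjusted p = 0.043), by the fit of all 36 libraries (adjusted p = 0.019) and without AT3 replicate 2 (adjusted p = 0.037). The IPK2 call against ACK was also lost without ACK replicate 1 or 3 or AT3 replicate 1 or 3, at adjusted p values of 0.069 to 0.136. Without ACK replicate 3 or AT3 replicate 1 or 3, 0 of all genes were called. Without ACK replicate 1, 1366 were called, and without AT3 replicate 2, 6652 were, against 4542 with all 6 libraries. All comparisons of 1 line share its 3 control libraries. The study had named both genes as raised in the cold from these libraries, so the cold calls are not independent evidence of their direction.

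**Figure D2:**
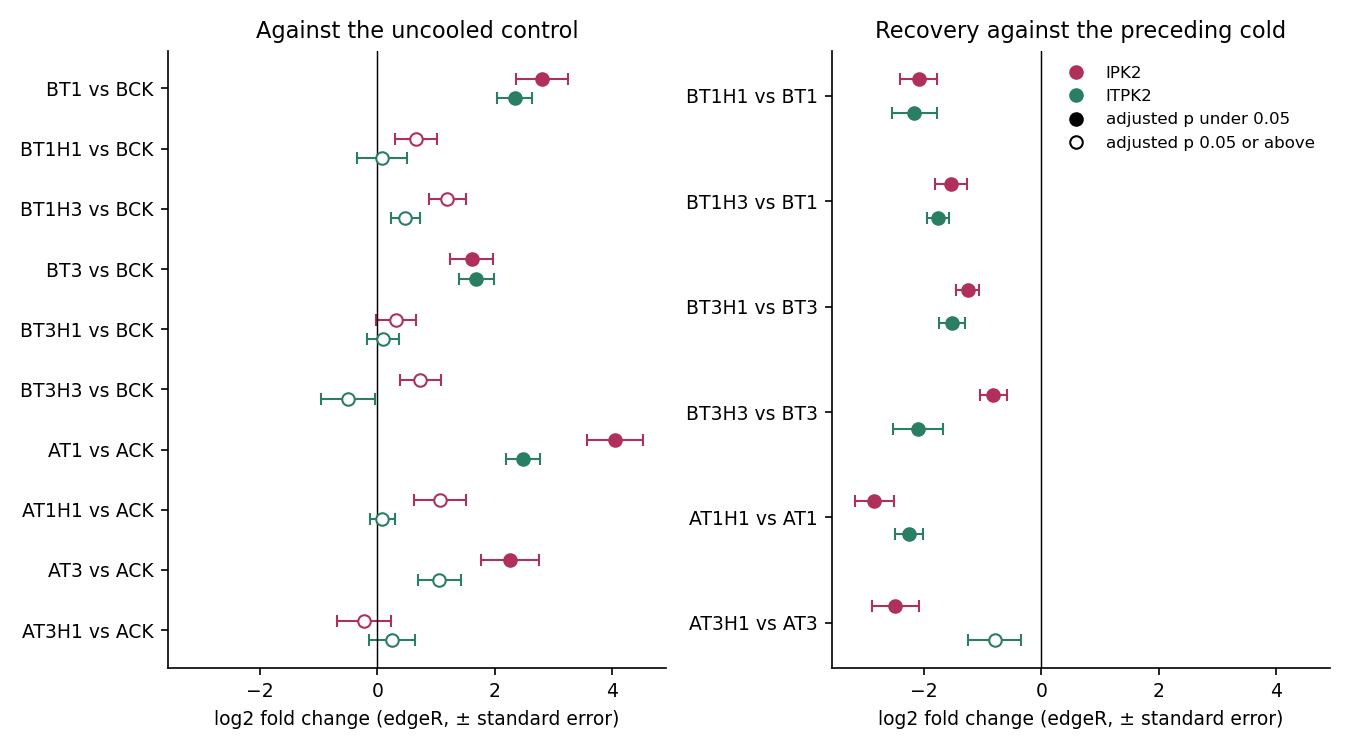
Log2 fold change of IPK2 and ITPK2 with its standard error (edgeR, 3 against 3 libraries), against the uncooled control of the line (left) and in recovery against the preceding cold (right). Filled points have an adjusted p under 0.05 over all genes tested. In the left panel the filled points are those of BT1, BT3 and AT1 for both genes and of AT3 for IPK2, and in the right panel every point but ITPK2 in AT3H1 is filled.

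The second question was whether the level differed between the third and the first day of cold. From these same libraries the study had already described both genes as higher after 1 day than after 3 days. A fall by the third day is therefore not independent evidence of its direction. In BT3 against BT1, IPK2 fell by 1.15 on the log2 scale (SE 0.30, adjusted p = 0.042), and 8.18% of all genes were called lower. ITPK2 had -0.60 ± 0.24 (adjusted p = 0.12). Every BT3 library lay below every BT1 library for both genes, in FPKM and after TMM scaling, a pattern that 17.8% of all genes showed in FPKM and 19.3% after TMM scaling. The IPK2 call was lost in 5 of 6 fits that left out 1 library, namely BT1 replicate 1 or 2 or any of the BT3 replicates, with adjusted p values of 0.059 to 0.155. The fits that lost it called 217 to 2530 genes, against 4003 with all 6 libraries. In the groups labelled 9311, IPK2 averaged 49.4 FPKM in AT3 and 128 FPKM in AT1, and ITPK2 averaged 31.7 FPKM in AT3 and 64.6 FPKM in AT1, but these were not tested because the AT3 libraries went against their label.

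The third question was how far each gene returned in recovery. Against the preceding cold, both genes fell in all DC907 recovery groups and in AT1H1. These comparisons reuse the cold libraries in which the study had named both genes as raised. The direction of the falls is therefore not independent evidence either. In AT1H1 against AT1, IPK2 fell by 2.85 on the log2 scale (SE 0.33, adjusted p = 0.00072) and ITPK2 fell by 2.25 (SE 0.24, adjusted p = 0.00054), where 23.1% of all genes were called lower. In FPKM the AT1H1 mean was 0.193 of the AT1 mean for IPK2 and 0.294 of it for ITPK2. Both calls held without each of the 6 libraries in turn.

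In BT1H1 against BT1, IPK2 fell by 2.09 (SE 0.31, adjusted p = 0.0051) and ITPK2 fell by 2.17 (SE 0.38, adjusted p = 0.0080) on the log2 scale, with 18.3% of all genes called lower. After 3 days, in BT1H3 against BT1, IPK2 fell by 1.53 (SE 0.27, adjusted p = 0.0054) and ITPK2 fell by 1.76 (SE 0.18, adjusted p = 0.0013), with 23.6% called lower. Both genes thus stood nearer to BT1 after 3 days than after 1 day of recovery, and the difference between BT1H3 and BT1H1 was not tested.

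In BT3H1 against BT3, IPK2 fell by 1.25 (SE 0.20, adjusted p = 0.0034) and ITPK2 fell by 1.53 (SE 0.22, adjusted p = 0.0026) on the log2 scale, with 23.9% of all genes called lower. In BT3H3 against BT3, IPK2 fell by 0.82 (SE 0.23, adjusted p = 0.022) and ITPK2 fell by 2.10 (SE 0.43, adjusted p = 0.0066), with 26.5% called lower. The IPK2 call in BT3H3 was lost without BT3 replicate 1 or 3 or BT3H3 replicate 1 or 2, at adjusted p values of 0.052 to 0.094.

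In the libraries labelled AT3H1 against those labelled AT3, IPK2 fell by 2.49 (SE 0.40, adjusted p = 0.023) on the log2 scale and ITPK2 had -0.79 ± 0.45 (adjusted p = 0.26), with 6.55% of all genes called lower. Of the fits without 1 library, only the one without AT3 replicate 2 kept this IPK2 call. The others had adjusted p values of 0.064 to 0.115. The fit that kept it called 4470 genes and the others 0 to 152, against 2625 with all 6 libraries. The IPK2 value ran over -2.69 to -2.33 in these fits, and most other genes lost their call as well.

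Against the uncooled control, neither gene passed the test in any recovery group. In BT1H1 and BT1H3 edgeR called 0 of all genes at an adjusted p under 0.05, in either direction, although 28.2% and 30.4% of them had an unadjusted p under 0.05 and DESeq2 called 5080 and 5274 genes. IPK2 was at 0.66 ± 0.35 in BT1H1 (adjusted p = 0.27), 1.20 ± 0.32 in BT1H3 (adjusted p = 0.078), 0.32 ± 0.34 in BT3H1 (adjusted p = 0.53) and 0.73 ± 0.35 in BT3H3 (adjusted p = 0.18) on the log2 scale. In the 2 last comparisons 3.54% and 8.38% of all genes were called higher. Only the BT1H3 value was called by another fit, with an adjusted p of 0.014 from DESeq2, 0.019 from all 36 libraries together and 0.045 without BCK replicate 1. The fits of all 36 libraries and without BCK replicate 1 called 3338 and 943 genes there. The 7 alternative fits with every library ran over adjusted p values of 0.014 to 0.138. ITPK2 was at 0.08 ± 0.43 in BT1H1, 0.48 ± 0.25 in BT1H3, 0.10 ± 0.27 in BT3H1 and -0.50 ± 0.46 in BT3H3, with adjusted p values of 0.23 to 0.92.

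In FPKM, every library of all 4 DC907 recovery groups lay above every BCK library for IPK2. That pattern was common, at 30.5% of all genes in BT1H1, 28.9% in BT1H3, 34.1% in BT3H1 and 30.8% in BT3H3. It also rested on the scale. After TMM scaling only BT1H3 stayed clear, with 22.7, 24.4 and 22.4 CPM (counts scaled to the library total) against 14.97, 9.26 and 6.56 in BCK, a pattern of 19.8% of all genes. The median of all genes moved by the scale as well, to 0.35 with library totals and -0.02 with TMM factors in BT1H1, and to 0.35 and -0.05 in BT3H1. ITPK2 lay above BCK in every library only in BT1H3, on both scales.

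In 9311, AT1H1 against ACK gave IPK2 1.06 ± 0.44 (adjusted p = 0.21) and ITPK2 0.09 ± 0.21 (adjusted p = 0.82), in a comparison where 0.00878% of all genes were called higher. However, 24.0% of all genes had an unadjusted edgeR p under 0.05 there, and DESeq2 called 3393 genes. Without ACK replicate 2, the control library with the most IPK2, the IPK2 value was 1.53 (adjusted p = 0.042). That fit called 5327 of 23423 genes, against 2 of 22771 with all 6 libraries. The libraries labelled AT3H1 gave IPK2 -0.23 ± 0.46 (adjusted p = 0.75) and ITPK2 0.25 ± 0.39 (adjusted p = 0.68) against ACK, where 6.55% of all genes were called higher, and -0.29 ± 0.41 (adjusted p = 0.64) and 0.63 ± 0.42 (adjusted p = 0.31) against BCK.

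The return can also be given as the share of the log2 rise in the cold that was left in recovery, a description with no test. After TMM scaling, IPK2 kept 25.2% of its rise in BT1H1, 46.2% in BT1H3, 22.5% in BT3H1, 49.1% in BT3H3 and 27.5% in AT1H1. In FPKM these shares were larger, at 40.9%, 57.2%, 47.2%, 63.0% and 34.7% in the same order. ITPK2 kept -1.60% in BT1H1, 22.0% in BT1H3, 6.39% in BT3H1, -37.4% in BT3H3 and 2.86% in AT1H1 after TMM scaling. A negative share stands for a mean of the log2 values below that of the control. In BT1H1 the mean of the unlogged ITPK2 values, 13.9 CPM, was above the 13.3 CPM of BCK. In FPKM the ITPK2 shares were 17.2%, 35.2%, 31.6%, -20.5% and 11.8%, so that the one of BT1H1 changed sign with the scale. In each of these 5 groups the share was larger for IPK2 than for ITPK2, also in FPKM. Leaving out 1 library at a time gave IPK2 20.8% to 33.7% and ITPK2 -0.44% to 7.09% in AT1H1. In BT3H1 the ranges met, at 6.18% to 35.1% for IPK2 and -5.18% to 13.0% for ITPK2. For the libraries labelled AT3H1 against ACK the order was the other way round, with -5.26% for IPK2 and 17.8% for ITPK2, but the ranges without 1 library overlapped, at -23.3% to 9.36% for IPK2 and -6.33% to 56.2% for ITPK2. Against BCK the shares were -11.3% for IPK2 and 41.5% for ITPK2.

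**Figure D3:**
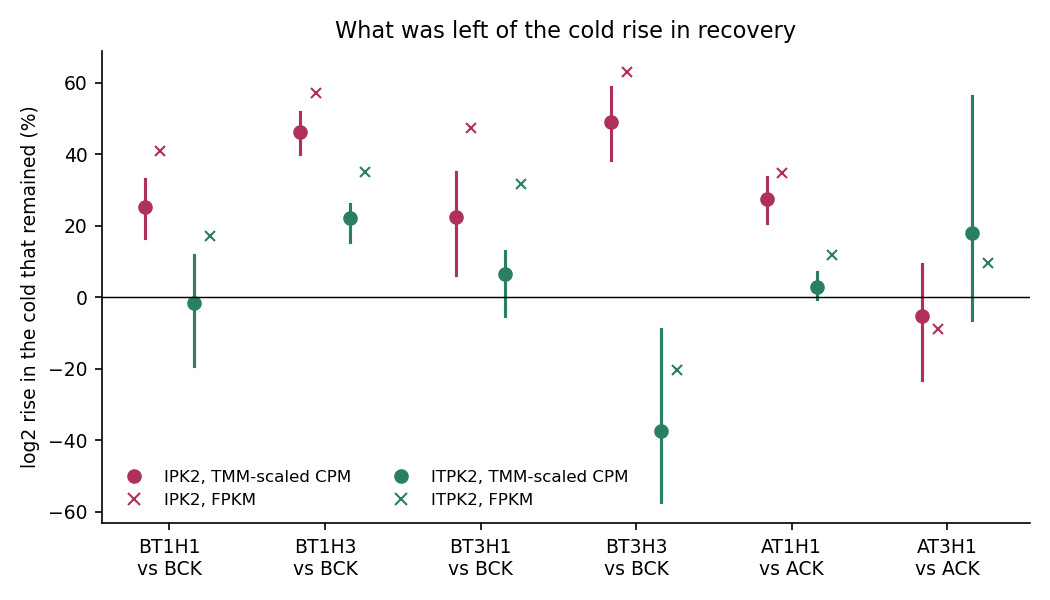
Share of the log2 rise in the cold, against the uncooled control named under each group, that was left in recovery, in percent. Points are TMM-scaled CPM, lines the range when 1 library is left out, and crosses the same share in FPKM. IPK2 lies above ITPK2 in the 4 DC907 groups and in AT1H1, and below it in AT3H1.

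The fourth question was whether the lines differed. Without cooling they did not differ by the test, with BCK against ACK at 0.03 ± 0.50 for IPK2 and -0.40 ± 0.30 for ITPK2 on the log2 scale, both at an adjusted p of 1.0, and 0.0439% of all genes were called. For ITPK2 the BCK libraries, at 10.2 to 15.5 CPM after TMM scaling, all lay below those of ACK, at 16.4 to 18.0. That pattern was shown by 2.35% of all genes, and in FPKM the libraries overlapped. On the first day of cold, IPK2 was at -1.10 ± 0.33 in BT1 against AT1, with an edgeR quasi-likelihood p of 0.0125 before and 0.68 after adjustment, where 0.0718% of all genes were called in either direction. All 3 BT1 libraries lay below all 3 AT1 libraries, which 5.02% of all genes did in FPKM and 8.40% after TMM scaling, and the BT1 mean was 0.513 of the AT1 mean in FPKM. The range without 1 library was -1.40 to -0.85, and no alternative fit called it. ITPK2 was at -0.46 ± 0.25 in BT1 against AT1 (adjusted p = 0.72), and its libraries overlapped in FPKM.

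The difference in the change itself, that is BT1 against BCK less AT1 against ACK, was -1.17 ± 0.63 for IPK2 (adjusted p = 0.91) and -0.10 for ITPK2 (adjusted p = 0.98), in a fit that called 0.00403% of all genes. A larger rise of IPK2 in 9311 than in DC907 was therefore not detected at this number of libraries. After 1 day of recovery, BT1H1 against AT1H1 gave -0.32 (adjusted p = 0.59) for IPK2 and -0.37 (adjusted p = 0.64) for ITPK2, with 0.722% of all genes called. The difference in the change from the control at that stage was -0.44 for IPK2 (adjusted p = 0.89) and -0.03 for ITPK2 (adjusted p = 1.0). There the edgeR count was 0, the share of genes whose unadjusted p fell under 0.05 was 8.70%, and DESeq2 called 217 genes. As labelled, BT3 against AT3 gave -0.65 (adjusted p = 0.33) for IPK2 and 0.18 (adjusted p = 0.81) for ITPK2, and BT3H1 against AT3H1 gave 0.58 (adjusted p = 0.20) and -0.57 (adjusted p = 0.33). In BT3 against AT3 the edgeR count over all genes was 0, although the unadjusted p of 18.3% of them fell under 0.05 and DESeq2 called 2250. In BT3H1 against AT3H1 edgeR called 0.00440% of all genes, although 27.3% had an unadjusted p under 0.05 and DESeq2 called 4296. Since the libraries labelled AT3 and AT3H1 resembled DC907 on the marker genes, the last values cannot be read as a difference between the lines.

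Since FPKM is per length, the 2 genes can be set against each other within a library, where the scaling of the library cancels. The ratio of IPK2 to ITPK2 was 1.36, 2.27 and 2.46 in AT1, against 0.401, 0.980 and 0.582 in ACK. All AT1 ratios lay above all ACK ratios. The mean log2 ratio was 0.97 in AT1 and -0.71 in ACK, a difference of 1.68, and the exact two-sided permutation test gave p = 0.1, the smallest that 3 against 3 libraries allow. In BT1 the ratio was 1.05, 1.64 and 1.07, against 1.73, 0.707 and 0.550 in BCK. Those overlapped (exact permutation p = 0.5), since BCK replicate 1 had more IPK2 and less ITPK2 than the other BCK libraries.

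On the third day in DC907 the ratio was 0.835, 0.938 and 0.851 in BT3, below all BT1 ratios. In recovery from it, the BT3H3 ratios of 1.19, 2.01 and 5.15 lay above all BT3 ratios, by 1.40 in the mean log2 ratio. The highest, 5.15 in BT3H3 replicate 3, was the largest ratio among the 36 libraries and came from the library with the least ITPK2. In BT1H3 the ratio was 1.43, 1.47 and 1.57, with the smallest SD of the log2 ratio among the 12 groups. Among 22 pairs of groups, the ratios did not overlap for AT1 against ACK, BT3H3 against BT3 and BT3 against BT1 only, each at the smallest exact permutation p of 0.1. Among 22 pairs, some at a p of 0.1 were to be expected without any difference. Nothing is concluded from their number, and the share of other gene pairs with such ratios was not determined.

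Across the 36 libraries the log2 FPKM of the 2 genes had a Pearson r of 0.70, and across the 12 group means it was 0.83. The points share line, stage and library depth, so this r has no test. Within groups the genes did not vary together, since their deviations from the group means had an r of -0.21. Without the 4 cold groups, the 8 remaining group means had an r of 0.15. The joint pattern was thus that of the cold groups against the others.

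**Figure D4:**
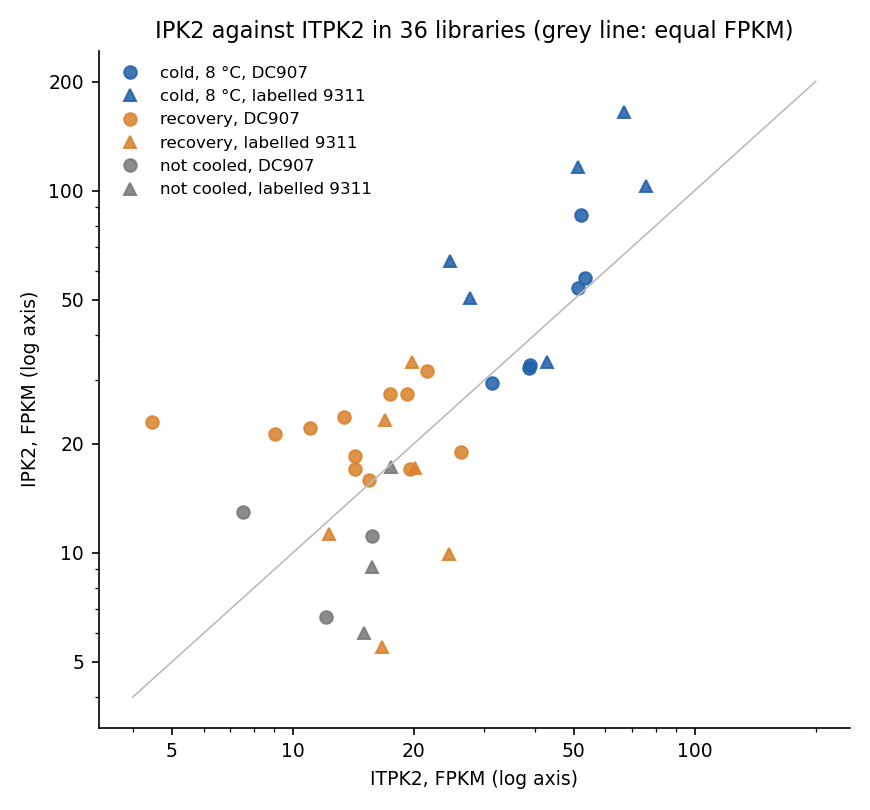
IPK2 against ITPK2 in FPKM, both on log axes, for 36 libraries coloured by stage, with circles for DC907 and triangles for libraries labelled 9311, and a grey line at equal FPKM. The cold libraries lie mostly at the upper right, with AT1 above the line at ratios of 1.36 to 2.46, and BT3H3 replicate 3 lies farthest to the left. Some recovery libraries reach into the range of the cold ones on 1 axis. AT1H1 replicate 1 has 33.7 FPKM of IPK2, against 29.4 to 33.1 in BT3. BT1H1 replicate 1 has 26.2 FPKM of ITPK2, against 24.6 in AT3 replicate 2.

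Among 26525 genes with a mean of at least 1 FPKM in some group, the likeness of each gene's pattern was measured as the Pearson r of log2(FPKM + 1) over the 36 libraries. For IPK2 the most similar were BGIOSGA036047 and BGIOSGA001951, both with an r of 0.92, and the fifth had an r of 0.91. The study annotated BGIOSGA001951 as a NAC family transcription factor, a family of plant regulators that includes many stress response genes, and its mean was 833 FPKM in AT1 and 50.7 FPKM in ACK. For ITPK2 the most similar was BGIOSGA029398, with an r of 0.91, and the fifth had an r of 0.89. BGIOSGA029398 averaged 161 FPKM in BT1 and 19.7 FPKM in BCK. The other genes are not paired with names in the files.

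ITPK2 held place 800 in the order of likeness to IPK2, with an r of 0.72, so that 3.01% of the genes were more like IPK2, and IPK2 held place 840 in that of ITPK2. The order at the top depended on the samples. Without the libraries labelled AT3 and AT3H1, 2 of the 5 genes most like IPK2 and 3 of the 5 most like ITPK2 were again among the first 5, and over the 12 group means 2 and 1 were.

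A list of 16 other genes was taken from those that the study's text names by identifier as raised or highly expressed in some cold group. It is not all of them, and they were chosen on the same libraries. Of the 14 tested in AT1 against ACK, 12 were called higher and 0 lower, where 16.8% of all genes were called higher. The median log2 fold change of the list was 3.69, against -0.13 for all genes. IPK2 at 4.05 lay above the median of the list and ITPK2 at 2.48 below it. In BT1 against BCK 5 of 14 were called higher, with a median of 2.70, and in BT3 against BCK 10 of 15, with a median of 2.95. In these comparisons 13.0% and 17.2% of all genes were called higher. In BT3 against BT1 the list had a median of 0.69, with 5 of 15 called higher and 2 lower, whereas IPK2 and ITPK2 were at -1.15 and -0.60. Of all genes, 9.30% were called higher there and 8.18% lower. In recovery against the preceding cold 14 of 14 were called lower in AT1H1, 13 of 14 in BT1H1 and in BT1H3, and 12 and 13 of 15 in BT3H1 and BT3H3, where 18.3% to 26.5% of all genes were called lower. In the libraries labelled AT3H1 against those labelled AT3 only 2 of 14 were called lower and 1 higher, with a median of -0.49, where 6.55% of all genes were called lower.

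Within that list, the genes closest in pattern to IPK2 were BGIOSGA015673, a flavin-containing monooxygenase, with an r of 0.80, and BGIOSGA026164, SAPK2, a protein kinase of the abscisic acid and osmotic stress response, with an r of 0.78. Those closest to ITPK2 were BGIOSGA029635, CYP707A7, of the family that breaks down abscisic acid, with an r of 0.79, and BGIOSGA012193, a glutamate decarboxylase, which makes the amino acid GABA, with an r of 0.78.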

How the data were processed

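Both genes, the list of 16 genes and the comparisons were chosen with earlier results of these data known. Per the paper's methods, the authors aligned reads to the indica genome of Ensembl Plants release 41, with its annotation, using HISAT2, and assembled 2509 new genes with Cufflinks and Cuffcompare. They deposited raw counts per gene, and the deposited FPKM equal the count divided by the length of the gene and the summed counts of the library. The lengths are coding lengths, 888 bases for IPK2 and 1050 for ITPK2. The counting program, the strand setting, the treatment of reads with several positions and the tool versions are not given in the sources used here, so reads shared with similar or overlapping genes cannot be told apart.

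Raw counts were tested with edgeR 4.0.16 in R 4.3.3 (quasi-likelihood, robust, TMM, filterByExpr), with 6 libraries per comparison, 12 per interaction and no block, in 24 comparisons. The SE is the size of the log2 fold change over the square root of F. P-values were adjusted by Benjamini-Hochberg over all genes tested, and called under 0.05. Exact two-sided permutation tests cannot go below 0.1. Tried besides were a replicate block, DESeq2 1.42.0, a common fit of all 36 libraries, median-ratio factors, a minimum of 10 counts per library, no filter, BCK as control of AT3 and AT3H1, and leaving out each library. Library totals without TMM factors were added after seeing the data. The scripts were tested on simulated data.

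Libraries of a group had r of 0.892 to 0.987 in log2(CPM + 0.1), and no pair agreed within sampling noise. Named besides both members were the 5 genes most like each, of which those without annotation are mostly given as counts, and the 2 of the list most like each. No identifier matched the RefSeq table of the japonica genome, so positions and sequences are not given. Markers of stem and leaf cells were not checked, since the files do not pair identifiers with names. Both genes had at least 80 counts in every library. Counting error and the spread between libraries were not separated.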

Additional observations from a re-analysis of the deposited data

How the results depend on the processing

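Of the values under alternatives with every library, 322 kept their direction and their side of the threshold, 7 lost their call, 5 gained one and 6 changed sign. With 1 library left out in turn the numbers were 270, 23, 4 and 15. The cause was not tested. The replicate numbers did not pair the samples, since in 0 of 22 comparisons was the correlation over 0.1 for every pair. With the number as a replicate block, AT1 against ACK gave IPK2 4.14 and ITPK2 2.45 (adjusted p = 0.0501 each), BT3 against BT1 gave IPK2 -1.10 (adjusted p = 0.157), and ITPK2 in BT1H1 against BCK was -0.020. The block also ended the IPK2 calls in AT3 against ACK (adjusted p = 0.088), AT3H1 against AT3 (adjusted p = 0.060) and BT3H3 against BT3 (adjusted p = 0.058). With the block, 0 of all genes were called in AT1 against ACK, AT3 against ACK and AT3H1 against AT3. In BT3 against BT1 it called 244 genes, against 4003 without it. In BT3H3 against BT3 it called 10107, against 11912 without it. With no filter on low counts IPK2 in BT3 against BT1 was -1.12 (adjusted p = 0.0515). The interaction after 1 day of recovery for ITPK2, -0.03, was 0.043 with no filter, 0.033 with at least 10 counts in every library and 0.22 with library totals. Library totals also gave ITPK2 0.14 in the interaction on the first day of cold and IPK2 -0.072 in BCK against ACK.

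Leaving out 1 library at a time gave IPK2 2.40 to 3.04 and ITPK2 2.04 to 2.43 in BT1 against BCK, IPK2 1.36 to 1.98 and ITPK2 1.52 to 1.86 in BT3 against BCK, and IPK2 -1.29 to -0.85 in BT3 against BT1. Values near 0 changed sign. IPK2 ran over -0.50 to 0.24 in AT3H1 against ACK and -0.29 to 0.51 in BCK against ACK. ITPK2 ran over -0.39 to 0.34 in BT1H1 against BCK, -0.063 to 0.21 in BT3H1 against BCK, -0.32 to 0.063 in the interaction on the first day of cold and -0.47 to 0.25 in that after 1 day of recovery.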
